A study of Mus musculus with 20 samples.

Results

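Transcripts of 9 genes of the epidermal lipid barrier were followed across 5 cell populations sorted from mouse dorsal epidermis and profiled by RNA-seq. The genes are Alox12b, Aloxe3, Abca12, Cers3, Elovl1, Elovl4, Ugcg, Smpd1 and Degs2, taken by name from the 53380 genes of the table in all 20 libraries. The study asked what sets apart basal keratinocytes that carry the surface protein Thy1. The populations were 4 libraries of integrin-α6+Sca1+Thy1hi keratinocytes (Thy1hi cells), 4 of α6+Sca1+Thy1- keratinocytes (Thy1- cells), 4 of hair follicle stem cells sorted as α6+Sca1-CD34+ (HFSCs), 5 of α6-Sca1lowThy1+ dendritic epidermal T cells (DETCs), and 3 of lineage-labelled Thy1hi keratinocytes sorted for YFP (YFP+ cells).

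The sample labels gave 1 genotype to every library, Thy1.2CreERT2-Rosa26-EYFP, in which a tamoxifen-inducible Cre under the Thy1.2 promoter switches on YFP, and they gave no treatment. The paper instead described wild-type C57BL/6J mice for the sorted populations and tamoxifen-induced mice for the YFP+ cells. The labels gave an age that went up by a week from sample to sample, from 8 to 27 weeks, while the series' design text gave 8 weeks for all. They also called the YFP+ cells Sca1-, where the sample names and the paper had Sca1+. How many mice were pooled into a library was unclear, so p-values measure the spread between libraries, which may be smaller than that between mice. Libraries were prepared in 2 batches and with more than 1 kit. Which library belonged to which was not given in the sources used here, so batch and population cannot be told apart. A pair of DETC libraries had numbers that matched no label and were named a and b.

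The outermost layer of the epidermis keeps water in because the dead cells there are embedded in sheets of ceramides, cholesterol and free fatty acids. Keratinocytes make the ceramides as they leave the basal layer: elongases (Elovl1, Elovl4) build very long fatty acids, a ceramide synthase (Cers3) joins them to a sphingoid base, a glucosyltransferase (Ugcg) caps them with glucose for storage, and a transporter (Abca12) loads them into lamellar bodies. After secretion, acid sphingomyelinase (Smpd1) frees ceramides from sphingomyelin, and the lipoxygenases Alox12b and Aloxe3 oxidise the linoleate of the longest ceramides so that the lipid can be bound to protein. Inherited loss of Alox12b, Aloxe3, Abca12 or Cers3 causes ichthyosis. Ugcg and Smpd1 also work in the sphingolipid metabolism of most other cell types, T cells among them.

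In mm10 coordinates with GENCODE gene models, Aloxe3 (chr11:69125896-69149115, plus strand) and Alox12b (chr11:69156989-69169792, plus strand) are neighbours, 7873 bases apart with no annotated gene between them. Abca12 lies at chr1:71242276-71414910 on the minus strand, Cers3 at chr7:66743504-66823691 on the plus strand, Elovl1 at chr4:118428093-118432953 on the plus strand and Elovl4 at chr9:83778692-83806277 on the minus strand. Ugcg lies at chr4:59189257-59222833 and Smpd1 at chr7:105554360-105558389, both on the plus strand. Degs2, at chr12:108678711-108702315 on the minus strand, shares 278 exon bases with Evl on the opposite strand, and Elovl1 shares 53 with Cdc20 on the opposite strand. Counting was not stated to use strand, so the reads in those shared bases cannot be assigned.

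Promoter windows of 250 bases before the RefSeq start (GRCm38.p6) were found for 8 of the 9 genes. Those of 4 are printed 5′ to 3′ on the strand of the gene, without bases inside the gene: Abca12, Alox12b and Elovl4 because they moved together between Thy1hi and Thy1- cells, and Smpd1 because it was highest in DETCs. They cover chr1:71414911-71415160, chr11:69156822-69156988, chr9:83806306-83806555 and chr7:105554110-105554359. Capitals mark copies of the GC box, GGGCGG or its reverse complement.
Abca12: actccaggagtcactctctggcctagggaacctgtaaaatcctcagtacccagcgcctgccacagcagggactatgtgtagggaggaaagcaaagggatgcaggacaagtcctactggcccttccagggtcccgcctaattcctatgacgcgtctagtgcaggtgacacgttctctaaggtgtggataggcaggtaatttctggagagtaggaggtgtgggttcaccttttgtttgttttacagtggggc
Alox12b: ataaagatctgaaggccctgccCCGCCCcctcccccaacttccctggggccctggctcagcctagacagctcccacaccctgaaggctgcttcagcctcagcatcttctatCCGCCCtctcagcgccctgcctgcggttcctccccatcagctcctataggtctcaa
Elovl4: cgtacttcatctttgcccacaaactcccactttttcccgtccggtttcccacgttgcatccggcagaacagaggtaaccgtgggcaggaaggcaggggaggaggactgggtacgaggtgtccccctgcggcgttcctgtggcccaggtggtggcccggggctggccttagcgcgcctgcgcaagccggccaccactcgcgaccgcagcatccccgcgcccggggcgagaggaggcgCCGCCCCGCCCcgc
Smpd1: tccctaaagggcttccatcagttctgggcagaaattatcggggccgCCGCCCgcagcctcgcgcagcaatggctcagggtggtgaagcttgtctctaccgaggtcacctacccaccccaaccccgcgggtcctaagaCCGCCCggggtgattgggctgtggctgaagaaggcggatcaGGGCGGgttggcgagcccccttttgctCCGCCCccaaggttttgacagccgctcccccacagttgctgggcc
The windows differed in CG pairs. The 250 bases of Abca12 held 5 CG pairs and 53.2% G or C, beside a median of 6 pairs and 52.4% over 32536 mouse promoter windows of this length, and those of Elovl4 held 25 pairs and 69.6%. Abca12 had no GC box, Alox12b had 2 in the part shown, Elovl4 had 2 that overlap each other, and Smpd1 had 4. A GC box stood in 33.0% of all windows. Searched on both strands, the TATA box TATAAA (12.3% of all windows), the AP-1 site TGANTCA (6.73%) and the grainyhead-like site AACCNGTT (1.79%) were not among the letters of these 4 windows. The 250 bases of Alox12b held 11 CG pairs and 66% G or C. Abca12, Alox12b and Elovl4, which moved together, thus had windows of unlike composition. Aloxe3, which moved with them, had no window.

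Each library held 7781256 to 12982393 reads on genes, of which 13.1% to 41.5% fell on the ribosomal RNA gene Rn45s. Values are normalized counts, that is reads divided by a size factor per library. By marker level, the DETC and HFSC sorts held the cells their labels name, though not those alone. Thy1, Sca1 and YFP transcripts, which would mark the keratinocyte sorts, were not examined here. The summed T cell markers (6 genes) were 19033 to 39659 in DETCs and 111 to 424 elsewhere, and the summed HFSC markers (5 genes) were 5473 to 9029 in HFSCs and 384 to 2103 elsewhere. DETC libraries nevertheless carried basal keratinocyte markers (5 genes, among them Krt5 and Krt14) at 9972 to 46131 and suprabasal markers (9 genes, among them Krt1 and Krt10) at 4323 to 28021. DETC a stood apart, with the lowest sums of both keratinocyte lists among DETCs and the highest T cell sum. In HFSC 4, where Rn45s took the smallest share, all 8 tested members had their lowest HFSC value, and its basal sum was 48623 against 104683 to 114606 in the other HFSC libraries. In bulk samples, fewer cells of a type and less RNA per cell cannot be told apart.

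Of the 9 genes, 8 passed the filter of at least 10 normalized counts in at least 3 libraries. Degs2, a sphingolipid desaturase and hydroxylase, did not. It ranged from 0 to 10.8 normalized counts with its highest value in DETC b, and it was not tested.

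**Figure D1:**
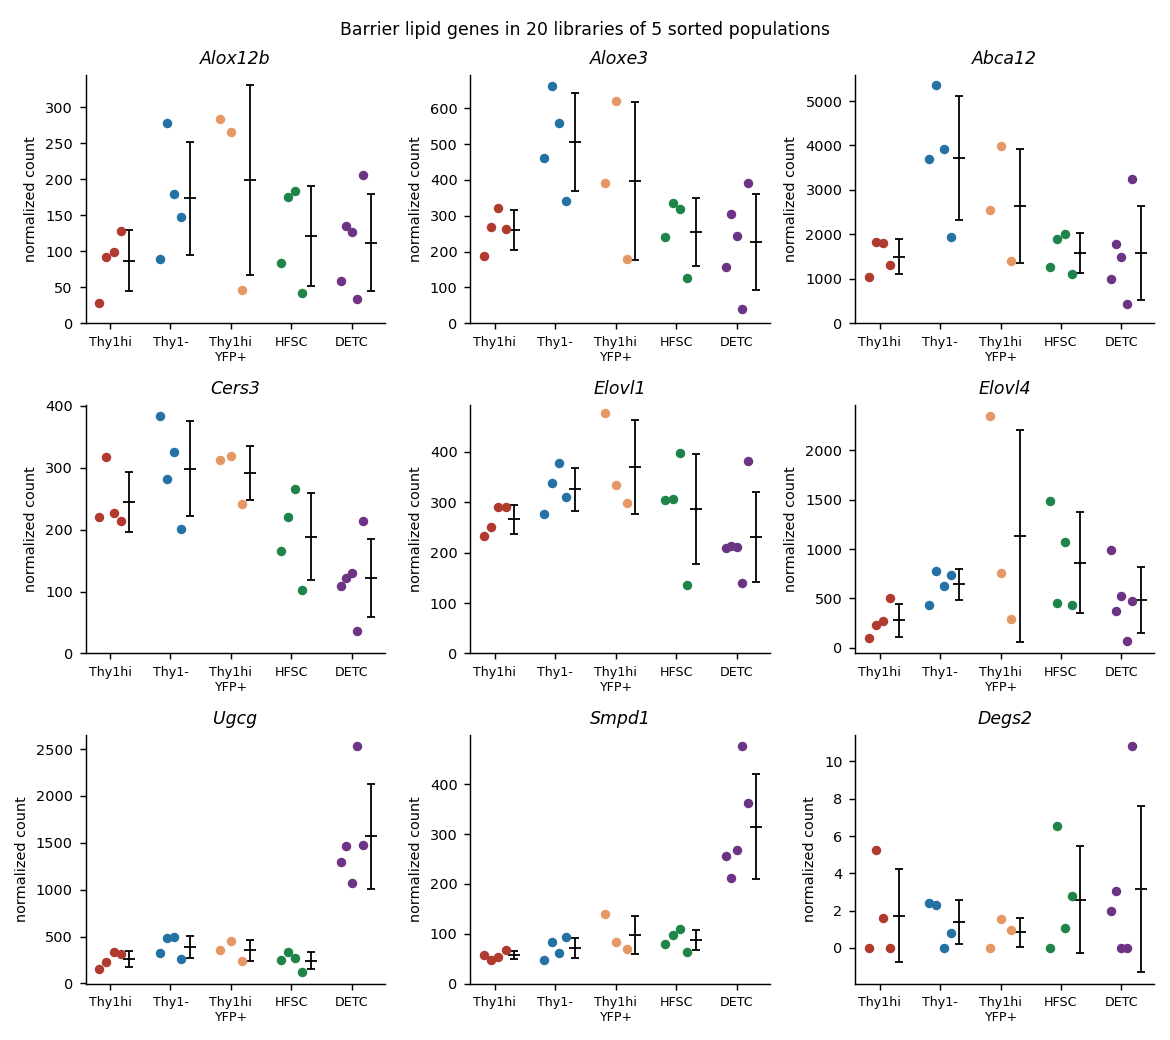
Normalized counts of the 9 genes (y axis, linear, own scale per gene) in each of 20 libraries, grouped by sorted population on the x axis: points are libraries, in order of replicate number from left to right, and the black bar gives mean ± SD. Ugcg and Smpd1 stand out in DETCs (means 1569 and 315), whereas Aloxe3 and Abca12 have their highest means in Thy1- cells (506 and 3726).

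Per kilobase of exon, Abca12, Elovl1 and Elovl4 were the leading members in Thy1hi cells (101 ± 26.2, 97.6 ± 10.7 and 91.2 ± 56.0 normalized counts per kb, SD, n = 4). In Thy1- cells Abca12 led with 252 ± 94.2 (SD, n = 4), and in DETCs Ugcg led with 301 ± 108 (SD, n = 5). Smpd1 ranked last among the tested members in all 4 keratinocyte populations, at 17.1 to 29.3 per kb, and stood below Ugcg, Elovl4 and Abca12 in DETCs at 94.4 ± 31.7 (SD, n = 5). When populations were ordered by the mean of each member, no neighbouring populations differed in limma's test except at the top of Ugcg and Smpd1, where DETCs stood above the next population (adjusted p = 4.54e-05 and 0.000113). Every other pair of neighbours also overlapped.

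Thy1hi cells had less of all 8 tested members than Thy1- cells by fitted value, from -0.27 for Cers3 to -1.40 for Elovl4 on the log2 scale of normalized count + 1. The median was -0.77, beside -0.02 over all 17204 genes tested. Over all 20 libraries in 1 limma fit, none of the 8 passed an adjusted p of 0.05 (1 did at an unadjusted p under 0.05), where 0.337% of all genes did. edgeR and DESeq2 also called 0. Libraries of these populations that carried the same number varied together around the mean of their own group (r from 0.293 to 0.716), so the pairs were fitted too. Unlike numbers gave r from -0.65 to 0.51. Thy1- replicate 1 followed Thy1hi replicate 2 (0.514) more closely than Thy1hi replicate 1 (0.293). In the paired fit, Abca12, Alox12b, Aloxe3 and Elovl4 were lower in Thy1hi cells, 4 of 8 members, where 3.19% of all genes were lower.

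Alox12b and Aloxe3 encode the lipoxygenases that act one after the other, 12R-lipoxygenase and its partner, a hydroperoxide isomerase. Aloxe3 measured 188, 270.0, 323 and 262 normalized counts in Thy1hi replicates 1 to 4 and 461, 663, 559 and 342 in the Thy1- replicates of the same numbers. The groups did not overlap, as for 3.17% of all genes in this direction. The paired fit gave a difference of -0.94 ± 0.16 (log2, SE, 4 pairs, limma adjusted p = 0.00627), and a two-sided exact permutation test of the unpaired libraries gave p = 0.0286, the smallest that 4 against 4 allows. For Aloxe3 the unpaired limma fit gave an adjusted p of 0.787. Alox12b measured 27.6, 92.2, 98.4 and 128 in Thy1hi cells and 88.8, 278, 179 and 148 in Thy1- cells. Here the groups overlapped, and each Thy1hi library was below its own Thy1- partner. Without the pairing, the exact permutation test gave p = 0.114 and limma an adjusted p of 0.844. The paired difference was -1.07 ± 0.23 (log2, SE, limma adjusted p = 0.0232, and 0.0107 to 0.127 with each pair left out), so that without pair 1, 2 or 3 Alox12b no longer passed.

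Abca12, the transporter that fills lamellar bodies with glucosylceramide, measured 1042, 1828, 1817 and 1312 in Thy1hi replicates 1 to 4. In Thy1- cells it measured 3692, 5350.1, 3916 and 1946. All Thy1hi libraries were below all Thy1- libraries, by 3.54-, 2.93-, 2.16- and 1.48-fold within pairs 1 to 4. The paired difference was -1.26 ± 0.17 (log2, SE, limma adjusted p = 0.00269), the exact permutation test of the unpaired libraries gave p = 0.0286, and the unpaired limma fit gave an adjusted p of 0.401.

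The elongases split. Elovl4, which makes the ultra-long fatty acids of acylceramides, measured 102, 227, 269.9 and 506 in Thy1hi replicates 1 to 4 and 431, 773, 623 and 742 in the Thy1- replicates. Its pairs differed by 4.24-, 3.41-, 2.31- and 1.46-fold, all lower in Thy1hi cells. The largest Thy1hi value lay above the smallest Thy1- value. The paired log2 difference was -1.40 ± 0.21 (SE, limma adjusted p = 0.00374). Without the pairing, the exact permutation test gave p = 0.0571 and limma an adjusted p of 0.714. Elovl1, which makes very long saturated and monounsaturated chains in many tissues, was also lower in each of the 4 pairs, as were 13.5% of all genes, but by at most 1.35-fold, and did not pass (-0.29 ± 0.11, SE, limma adjusted p = 0.188).

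The other 3 tested members did not pass in either fit. Cers3, the synthase that takes ultra-long acyl chains, was 214 to 317 in Thy1hi and 202 to 384 in Thy1- cells and was higher in Thy1hi cells in pairs 2 and 4. Ugcg was 159 to 336 against 264 to 495 and went the other way in pair 4, and Smpd1 was 47.4 to 67.9 against 47.4 to 93.5 and went the other way in pair 1. Their paired differences had limma adjusted p-values of 0.426, 0.113 and 0.525. Pair 4 showed the smallest difference of the pairs for Abca12, Aloxe3, Alox12b, Elovl1 and Elovl4. Without it 5 members passed in the paired fit, Ugcg being the added gene (-0.90 ± 0.16, SE, limma adjusted p = 0.0150), and without pair 1, 2 or 3, 3 did.

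**Figure D2:**
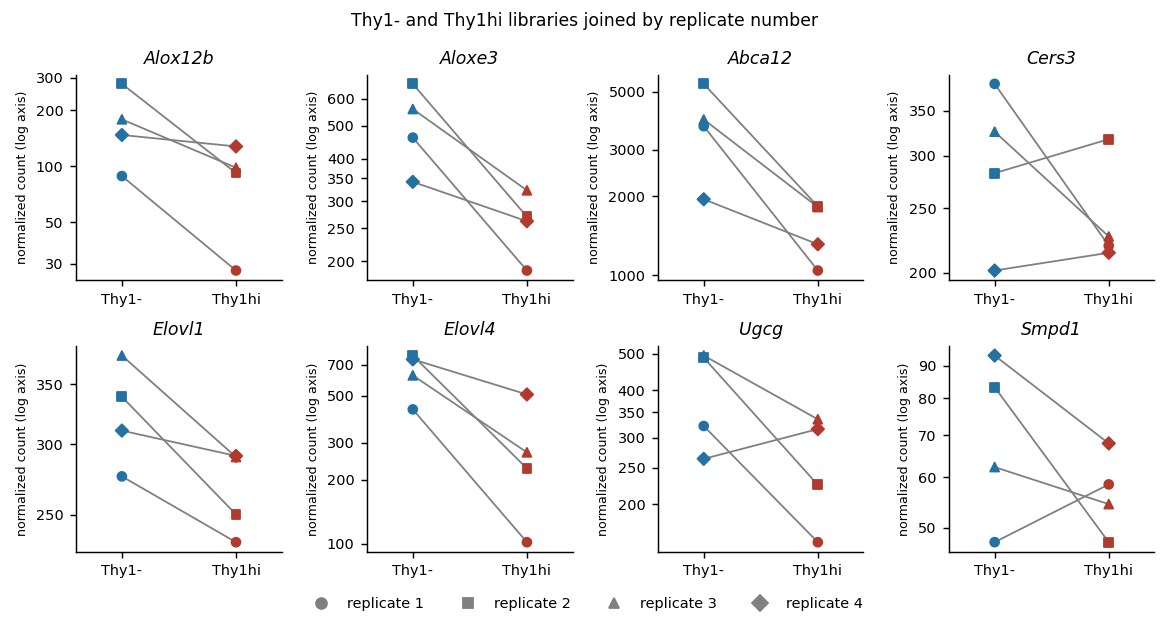
Normalized counts (y axis, log scale, own range per gene) of 8 members in Thy1- and Thy1hi libraries, with libraries of the same replicate number joined by a line and marked by the same symbol. All 4 lines fall towards Thy1hi for Alox12b, Aloxe3, Abca12, Elovl1 and Elovl4, while those of Cers3, Ugcg and Smpd1 go both ways.

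Other cell type markers moved with this difference. The summed suprabasal markers were 10892 to 30675 in Thy1hi and 29977 to 44198 in Thy1- cells, with 8 of 9 genes lower in Thy1hi cells in the paired fit (median log2 difference -1.28), and none of the 9 was at 0 in any of these libraries. The summed basal markers were 171225 to 228574 against 75406 to 121650, with 5 of 5 higher in the paired fit. HFSC markers summed to 671 to 971 against 1881 to 2103 and Langerhans cell markers to 1304 to 1724 against 1903 to 2337. Fibroblast markers summed to 178 to 1881 against 120.5 to 202, with 3 of 4 higher in Thy1hi cells in the paired fit, and of the 6 T cell markers 1 was higher. Of 5 sebaceous gland, 3 melanocyte and 3 endothelial markers tested, 0 passed in the paired limma fit (2, 1 and 0 at an unadjusted p under 0.05). The part of these cell types in the lower values of the members was not tested.

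The neighbouring steps of the pathway were read from gene lists, which leave out the 9 members. Of 9 tested genes of lipoxygenases and epoxide products, 2 were lower in Thy1hi than in Thy1- cells and none higher in the fit of all libraries, where 0.221% of all genes were lower. Alox12e, another epidermal lipoxygenase gene, was at 252 ± 112.5 in Thy1hi and 1112 ± 112 in Thy1- cells (SD, n = 4 each, log2 difference -2.26 ± 0.49, SE, limma adjusted p = 0.0467). Ephx2, soluble epoxide hydrolase, was at 22.3 ± 8.08 and 75.6 ± 25.3 (SD, n = 4 each, -1.75 ± 0.32, SE, limma adjusted p = 0.0223). The groups of both genes did not overlap, and over the alternatives their adjusted p-values ran up to 0.248 and 0.0936. In the paired fit 4 of these 9 genes were lower and 0 higher, where 3.19% of all genes were lower and 3.42% higher.

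Counts in the other lists come from the paired fit and stand beside the same 3.19% and 3.42%. Over all 6 lists, 16 of 63 genes (25.4%) were lower and 2 (3.17%) higher. Of 4 genes of acylceramide assembly, 2 were lower in Thy1hi cells, and one of these was Pnpla1, the transacylase that makes acylceramide, at 38.6 ± 12.4 against 91.6 ± 31.6 (SD, n = 4 each, -1.23, limma adjusted p = 0.0115). Of 10 other genes of inherited or experimental barrier disease, 4 were lower. Of 13 genes of sphingoid base and ceramide synthesis 2 were lower, and of 16 genes of glucosylceramide and sphingomyelin turnover 4 were lower and 2 higher. Of 11 genes of fatty acid elongation 0 passed (limma, 2 at an unadjusted p under 0.05). In the fit of all libraries, in contrast, the calls among the 63 genes of the 6 lists were Alox12e and Ephx2.

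Against HFSCs, none of the 8 members passed in Thy1hi cells (limma, 2 at an unadjusted p under 0.05, 0 by edgeR and by DESeq2), where 13.4% of all genes passed. The lowest p belonged to Elovl4, at a median of 765 (436 to 1486) in HFSCs and 248 (102 to 506) in Thy1hi cells, a log2 difference of -1.66 ± 0.69 (SE, limma adjusted p = 0.119). HFSC 1, with the highest Elovl4 value, also had the highest summed sebaceous gland markers (502 against 16.8 to 257 in the other HFSC libraries). Its suprabasal sum was the highest of the HFSCs too (52097 against 26494 to 49997.5). The part of sebaceous gland or suprabasal transcripts in the Elovl4 level was not tested. Abca12 averaged 1570.4 ± 450.1 in HFSCs and 1499.7 ± 389 in Thy1hi cells (SD, n = 4 each), and the 95% interval of the difference ran from -0.95 to 0.83 on the log2 scale. Aloxe3 averaged 255 ± 95.2 and 261 ± 55.6 (SD, n = 4 each), with an interval from -0.91 to 1.11. A missed threshold does not show that these levels were equal. Of the 63 listed genes, 7 (11.1%) were lower in Thy1hi cells than in HFSCs, where 6.86% of all genes were. Alox12e was among them (1104 ± 212 in HFSCs, SD, n = 4, log2 difference -2.23, limma adjusted p = 0.00372), with Ephx2 (-1.95, 0.000305), Pnpla1 (-1.05, 0.0412) and Cers4, a ceramide synthase of shorter acyl chains (-1.87, 0.00584).

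The comparison of Thy1- cells with HFSCs shared the HFSC libraries with the one above and the Thy1- libraries with that of Thy1hi and Thy1- cells. It gave 0 calls of 8 members in the limma fit (2 at an unadjusted p under 0.05, 0 by edgeR), where 6.08% of all genes passed. DESeq2 called 1, Abca12, at 1.25 (log2, adjusted p = 0.0385, with adjusted p-values of 0.0385 to 0.285 over the alternatives). Abca12 was 1946 to 5350.1 in Thy1- cells and 1107 to 2002 in HFSCs and overlapped between them by 1 library of each. Without Thy1- replicate 4, the library at that lower end, limma called it (1.49 ± 0.47, SE, adjusted p = 0.0474). Aloxe3 was 342 to 663 in Thy1- cells and 126 to 335 in HFSCs. These did not overlap, as for 6.16% of all genes in this direction (two-sided exact permutation p = 0.0286, limma adjusted p = 0.226).

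**Figure D3:**
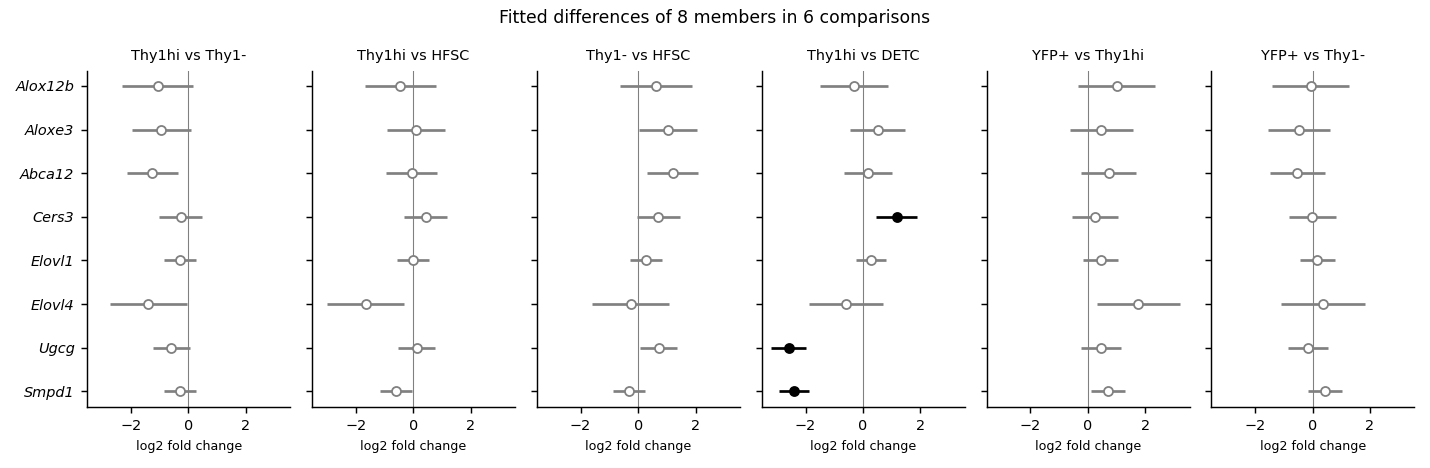
Fitted log2 differences (x axis, first population minus second, log2 of normalized count + 1) of 8 members (y axis) in 6 comparisons, with 95% intervals from limma over all 20 libraries. Filled points pass an adjusted p of 0.05: Cers3, Ugcg and Smpd1 in Thy1hi against DETC, and no member in the other 5 comparisons.

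DETCs set Ugcg and Smpd1 apart from the other members. Ugcg, glucosylceramide synthase, measured 1300.3, 1463, 1075, 2530.0 and 1477 normalized counts in DETC 1, 2, 3, a and b. In the 15 libraries of the other populations it lay between 118 and 495. Every DETC library was above every other library, with DETC a highest. Against Thy1hi cells alone, 18.8% of all genes did not overlap in this direction, and the share against all 15 libraries was not computed. The mean of DETCs was 1569 ± 561 (SD, n = 5) and that of Thy1hi cells 259 ± 82.3 (SD, n = 4). The fit on the log2 scale gave a 6.03-fold difference (log2 of Thy1hi over DETC -2.59 ± 0.31, SE, limma adjusted p = 1.31e-06). The exact permutation test gave p = 0.0159, the smallest that 4 against 5 allows. Against HFSCs and Thy1- cells the fitted folds were 6.55 and 3.96 (limma adjusted p = 7.02e-07 and 4.54e-05).

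Smpd1, acid sphingomyelinase, measured 256, 212.5, 268, 477 and 361.5 normalized counts in DETC 1, 2, 3, a and b. In the 15 other libraries it lay between 47.4 and 141, again with no overlap. The mean of DETCs was 315 ± 106 (SD, n = 5) and that of Thy1hi cells 57.1 ± 8.55 (SD, n = 4). The fit on the log2 scale gave a 5.26-fold difference (-2.40 ± 0.27, SE, limma adjusted p = 4.72e-07). Without DETC a, the library with the fewest keratinocyte transcripts, the differences of Ugcg and Smpd1 from Thy1hi cells were -2.40 ± 0.30 and -2.23 ± 0.26 (SE, limma adjusted p = 3.72e-06 and 1.22e-06).

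Cers3 was the only member that passed in the other direction. It measured 109, 122, 130.4, 35.7 and 214 in DETC 1, 2, 3, a and b and 214 to 317 in Thy1hi cells, where the highest DETC library stopped just short of the lowest Thy1hi library. The difference of 1.18 ± 0.36 (log2, SE) passed (limma adjusted p = 0.0138, and 0.0288 without DETC a). In all, 3 of 8 members differed between Thy1hi cells and DETCs, 1 higher and 2 lower in Thy1hi cells, where 36.6% of all genes differed (16.6% higher and 19.9% lower). The share of the members was near that of all genes. The groups did not overlap for these 3, as for 14.4% of all genes with Thy1hi above and 18.8% with Thy1hi below.

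The remaining keratinocyte lipid genes did not pass between DETCs and Thy1hi cells. As means, DETC libraries held 129% of the Thy1hi level of Alox12b, 87.0% of Aloxe3, 106% of Abca12, 86.7% of Elovl1 and 175% of Elovl4, beside 89.0% of Krt1 and 123% of Krt10, keratins of suprabasal cells. Basal keratins were far lower, with 16.6% for Krt5 and 15.6% for Krt14. Of the Thy1- level, DETC means held 64.7% of Alox12b, 44.8% of Aloxe3, 42.6% of Abca12, 70.9% of Elovl1 and 75.4% of Elovl4. Krt1, Krt10, Krt5 and Krt14 were at 47.6%, 51.3%, 35.4% and 33.6% of that level. By fitted value Abca12 was 0.17 higher in Thy1hi cells than in DETCs on the log2 scale. The range over DETC libraries was wide. Abca12 ran from 436 in DETC a to 3235 in DETC b, Elovl4 from 63.1 in DETC a to 994 in DETC 1, and Alox12b from 34.3 in DETC a to 205 in DETC b. DETC 1 also had the highest summed sebaceous gland markers among DETCs (394 against 16.5 to 100 in the others). Its suprabasal sum was the highest of the DETCs too (28021 against 4323 to 25975 in the others). In DETC a, which also had the lowest suprabasal sum (4323 against 17993 to 28021 in the others), all 6 members other than Ugcg and Smpd1 had their lowest DETC value. The part of keratinocyte or sebaceous gland transcripts in these levels was not tested.

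**Figure D4:**
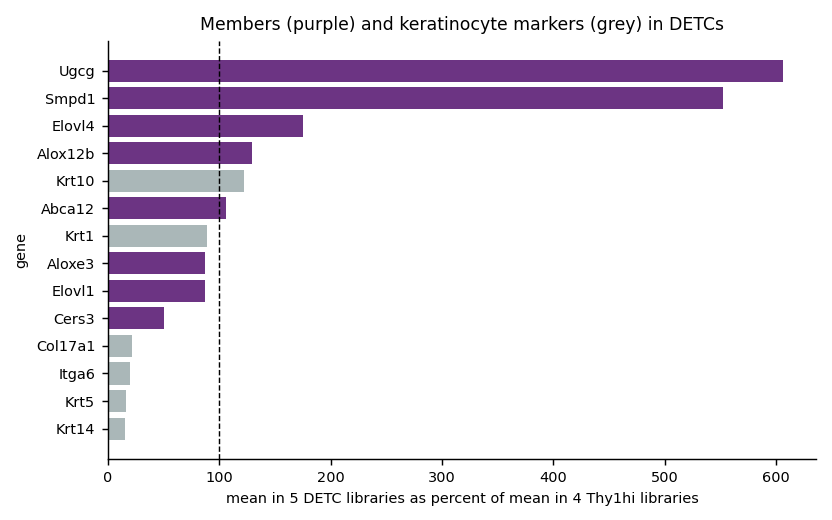
Mean normalized count in 5 DETC libraries as a percent of the mean in 4 Thy1hi libraries (x axis, linear from 0) for 8 members (purple) and 6 keratinocyte genes (grey, y axis); the dashed line marks 100%. Ugcg (606%) and Smpd1 (552%) lie far to the right, Cers3 (49.9%) lies below the line, and the basal genes Krt5 and Krt14 (16.6% and 15.6%) lie lowest.

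Set against Thy1- cells, DETCs differed in 5 of 8 members, 2 higher and 3 lower, where 34.1% of all genes differed (18.9% higher and 15.2% lower). Besides Ugcg and Smpd1 these were Cers3 (DETC minus Thy1- -1.45 ± 0.36, log2, SE, limma adjusted p = 0.00378), Abca12 (-1.43 ± 0.43, 0.0134) and Aloxe3 (-1.46 ± 0.49, 0.0259). Abca12 missed the threshold without Thy1- replicate 2 (0.0533). Aloxe3 missed it without Thy1- replicate 2 or 3 or DETC a (0.0754, 0.0630 and 0.0633) with edgeR (0.0511), and in a fit of the 2 populations alone (0.0590). Without Thy1- replicate 2, 3 of the 5 calls were left. Against HFSCs 2 of 8 differed, Ugcg and Smpd1, both higher, where 39.7% of all genes differed (21.2% higher). Without HFSC 4 the count was 4, with Cers3 (-1.001 ± 0.372, log2, SE, limma adjusted p = 0.0382) and Elovl1 (-0.61 ± 0.24, 0.0468) lower in DETCs. Deviations of DETC and HFSC libraries correlated at 0.171 to 0.333 for the same number and at -0.32 to 0.37 for unlike numbers. The numbers thus did not clearly pair these libraries. In a fit of the 3 same-numbered pairs, which leaves out DETC a and b, 6 of 8 differed, where 42.2% of all genes did (19.6% lower). Cers3 (-0.82 ± 0.16, log2, SE, limma adjusted p = 0.00363), Elovl1 (-0.66 ± 0.14, 0.0058), Elovl4 (-0.64 ± 0.14, 0.00821) and Alox12b (-0.47 ± 0.16, 0.0485) were then lower in DETCs as well. These comparisons share the DETC libraries.

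Of the 63 listed genes, 26 (41.3%) differed between DETCs and Thy1hi cells, 14 (22.2%) higher and 12 (19.0%) lower in DETCs. These shares were near those of all genes, of which 36.6% differed, 19.9% higher and 16.6% lower in DETCs, so the counts by list are given as a description. Among 13 genes of sphingoid base and ceramide synthesis, 5 were higher and 2 lower in DETCs. Cers4 averaged 1477 ± 544 in DETCs (SD, n = 5) and 109 ± 36.4 in Thy1hi cells (SD, n = 4, limma adjusted p = 4.17e-07), Cers2, the most widely expressed ceramide synthase, 243.5 ± 48.8 and 56.5 ± 10.2 (2.28e-07), and Ormdl1, an inhibitor of sphingoid base synthesis, 107 ± 42.5 and 22.3 ± 9.63 (3.53e-05). Cers3 was thus lower in DETCs and Cers2 and Cers4 higher. Among 16 genes of glucosylceramide and sphingomyelin turnover 3 were higher and 4 lower in DETCs, led by B4galt5, the lactosylceramide synthase that acts after Ugcg (697 ± 217 against 16.5 ± 15.6, 9.29e-07), and by Acer3, an alkaline ceramidase (218 ± 44.4 against 463 ± 20.2, 3.94e-05).

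Among 11 genes of fatty acid elongation 3 were higher and 1 lower in DETCs. Elovl5, which elongates polyunsaturated chains, averaged 1273 ± 494 against 107 ± 26.7 (SD, n = 5 and 4, limma adjusted p = 3.83e-07), Hacd3, a dehydratase of the elongation cycle, 1598 ± 863 against 278 ± 14.1 (1.01e-07), and Elovl7 97.6 ± 36.6 against 205 ± 39.7 (0.00222). Elovl1 and Elovl4 did not pass. Among 10 other barrier genes 2 were higher in DETCs, including Sult2b1, the cholesterol sulfotransferase (257 ± 64.3 against 38.4 ± 11.2, 1.27e-06), and 3 lower, including the tight junction gene Cldn1 (893 ± 425 against 2596 ± 640, 0.00204). Of 4 acylceramide assembly genes 1 was lower, and of 9 lipoxygenase and epoxide genes 1 was higher and 1 lower in DETCs.

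YFP+ cells carried more of all 8 tested members than Thy1hi cells by fitted value, with a median of 0.59 beside -0.04 over all genes, but none passed (limma, 2 at an unadjusted p under 0.05, 0 by edgeR and by DESeq2), where 0.0116% of all genes did. Elovl4 was the most uneven, at 2348, 756 and 295 in YFP+ replicates 1, 2 and 3 against 102 to 506 in Thy1hi cells (1.76 ± 0.74, log2, SE, limma adjusted p = 0.498). Summed sebaceous gland markers (6 genes) were likewise highest in YFP+ replicate 1, at 602 against 83.6 and 45.6 in replicates 2 and 3. The suprabasal sum was highest there too, at 63346 against 41164 and 19278. Elovl1, at 476.5, 335 and 298, and Smpd1, at 141, 83.6 and 69.35, lay above all 4 Thy1hi libraries, as did 4.92% of all genes. With 3 against 4 the exact permutation test cannot go below 0.0571, which both reached.

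The highest of the YFP+ libraries was not the same for all members. Elovl4, Elovl1 and Smpd1 were set apart by their high values in replicate 1, given above. All 8 members were lowest in YFP+ replicate 3, which also had the lowest suprabasal sum of the 3 (19278 against 41164 and 63346) and the highest basal sum (257322 against 148331 and 212736). Alox12b was 46.6 there against 283 and 266 in replicates 1 and 2, and Aloxe3 was 180 against 392 and 620.0. The part of suprabasal or sebaceous gland transcripts in the spread was not tested. Against Thy1- cells, none of the 8 passed (limma, 0 at an unadjusted p under 0.05, 0 by edgeR and by DESeq2), where 0.761% of all genes did. The 95% interval for Abca12 ran from -1.49 to 0.43 and that for Aloxe3 from -1.57 to 0.62 on the log2 scale.

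Across all 20 libraries the members fell into a large and a small set by likeness of their log2 values. Aloxe3 and Abca12 were most alike (Pearson r = 0.950), followed by Ugcg and Smpd1 (0.873), Aloxe3 and Cers3 (0.860) and Alox12b and Aloxe3 (0.811). Ugcg and Smpd1 had r between -0.67 and 0.13 with the other 6. These points share libraries, size factors and cell makeup, and the values describe these libraries only.

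**Figure D5:**
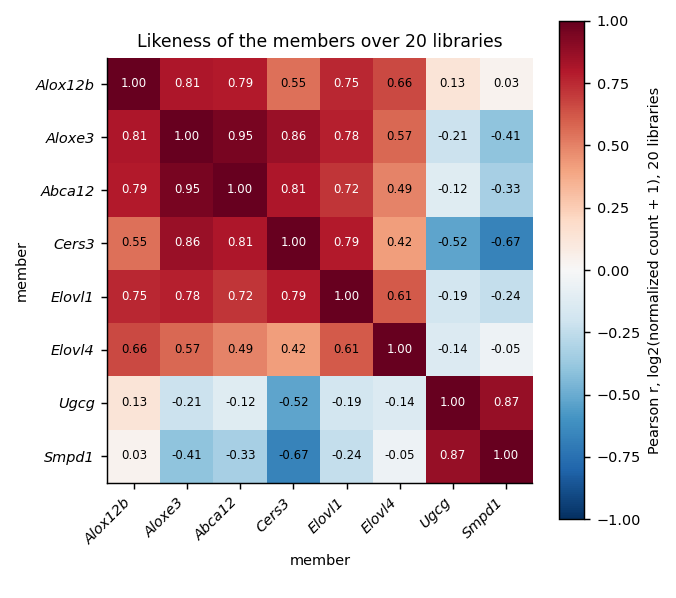
Pearson correlation (colour and printed value) of log2(normalized count + 1) between each pair of the 8 tested members over 20 libraries, members on both axes. Alox12b, Aloxe3, Abca12, Cers3, Elovl1 and Elovl4 form a block of positive values from 0.42 to 0.95, apart from Ugcg and Smpd1, which share 0.87.

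The tested genes most like each member over the 20 libraries included several genes of the epidermal barrier. Alox12b ran closest to Cdsn, corneodesmosin of the cornified layer (r = 0.947), Dnase1l3 (0.943) and Serpina12 (0.937). Aloxe3 and Abca12 were both among the 3 genes closest to the other, and Blnk and Eps8l1 were the other two for each (0.901 to 0.952). Elovl4 ran closest to Krt10 (0.956), a keratin of suprabasal cells, and to the retinol dehydrogenase relatives Sdr16c6 and Sdr16c5 (0.950 and 0.945). Elovl1 had Tgm1, the transglutaminase that cross-links the cornified envelope (0.862), Ifi30 (0.855) and Nipal4 (0.848), another ichthyosis gene. Cers3 had Tmprss13, Mreg and Spint1 (0.948 to 0.960). Ugcg ran instead with Peli1, Irak2 and Ell2 (0.954 to 0.974), and Smpd1 with Gna12, Csk and Grk2 (0.963 to 0.965), genes that were not among those closest to the other 6 members.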

How the data were processed

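Cell populations sorted from mouse dorsal epidermis were profiled by bulk RNA-seq in 20 libraries. The authors aligned reads with STAR to mm10, counted them per gene with featureCounts and deposited normalized counts (signal values scaled by DESeq2 size factors), rounded to 2 decimals. Multiplying back gave whole reads for 100% of values, within 0.0051 normalized counts plus a very small share of the value. In the column of Thy1- replicate 4, 3212 genes stood in another alphabetical order. Restoring it moved the correlation with the other Thy1- libraries at 1406 expressed moved genes from 0.115 to 0.943, and 0 members were among them.

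Differences were fitted with limma 3.58.1 (R 4.3.3, eBayes with trend) on log2(value + 1) over all 20 libraries, for the 17204 genes that reached 10 normalized counts in 3 or more libraries, with Benjamini-Hochberg adjustment over all of them and a threshold of 0.05. Single values were tested by two-sided exact permutation (scipy 1.17.1). edgeR 4.0.16 and DESeq2 1.42.0 on whole reads, other pseudocounts, filters and scalings, and each library left out were alternatives. Scripts were tested on simulated data.

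Replicate numbers were checked as pairs by the correlation of deviations from population means. It was 0.293 to 0.716 in the 4 same-numbered pairs of Thy1hi and Thy1- libraries and -0.65 to 0.51 in the 12 of unlike number. For DETC and HFSC libraries it was 0.171 to 0.333 in the 3 same-numbered pairs and -0.32 to 0.37 in the 17 others. Some libraries of unlike number thus deviated together as much as same-numbered ones. A fit with the number as a block is described for these 2 comparisons. For others only the number of members passing in such a fit is given. Members and lists were chosen with earlier results of these data known. The comparisons of DETCs with HFSCs and Thy1- cells, and the paired fit without each pair in turn, were chosen after seeing the data. Named genes were all members, up to 4 genes of each pathway list with the smallest adjusted p among those called, and the 3 genes most like each member.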

Additional observations from a re-analysis of the deposited data

Results flagged for a closer look

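Among 33 groups of 4 or 5 libraries, 3 held a value far from the rest, where chance alone marks about 5% of groups. Cers3 was 317.44 normalized counts in Thy1hi replicate 2, against 214.40 to 226.79 in the other Thy1hi libraries. Ugcg was 2530.04 in DETC a, against 1075.17 to 1477.22 in the other DETC libraries. Degs2 was 10.81 in DETC b, against 0 to 3.05 in the others, which is a level of few reads.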

How the results depend on the processing

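With the replicate block, the number of members passing was 4 in Thy1hi against Thy1- cells (0 without it), 6 in DETCs against HFSCs (2), 2 in Thy1- cells against HFSCs (0), 5 in Thy1hi cells against DETCs (3) and 7 in DETCs against Thy1- cells (5). In the last 3 comparisons the numbers did not pair the libraries. In DETCs against HFSCs, libraries of unlike number reached a higher correlation (0.37) than those of the same number (at most 0.33). DESeq2 called 1 member in Thy1- cells against HFSCs. In DETCs against Thy1- cells, edgeR and a fit of the 2 populations alone gave 4, and quantile normalization and rescaling without Rn45s gave 6. With single libraries left out, the counts were 0 to 1 in Thy1- cells against HFSCs, 2 to 4 in DETCs against HFSCs, 3 to 6 in DETCs against Thy1- cells and 3 each time in Thy1hi cells against DETCs. They were 0 each time in Thy1hi cells against Thy1- cells and HFSCs and in YFP+ against Thy1hi and Thy1- cells. Without each pair in turn, the paired count was 3 to 5.

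Members that did not pass changed sign under some settings, in log2 differences. With 1 library left out at a time, the ranges in Thy1hi cells against HFSCs were Alox12b -0.88 to 0.028, Aloxe3 -0.21 to 0.26, Abca12 -0.21 to 0.10, Elovl1 -0.33 to 0.18 and Ugcg -0.20 to 0.33, and Elovl1 was 0.039 with quantile normalization and 0.048 rescaled without Rn45s. In Thy1- cells against HFSCs they were Elovl1 -0.044 to 0.47 and Elovl4 -0.52 to 0.066. In Thy1hi cells against DETCs they were Alox12b -0.66 to 0.17, Aloxe3 -0.019 to 0.80 and Abca12 -0.23 to 0.50, and Abca12 was -0.081 with DESeq2 and -0.094 with edgeR. In YFP+ against Thy1- cells they were Alox12b -0.51 to 0.77, Aloxe3 -0.88 to 0.0035, Cers3 -0.19 to 0.12, Elovl1 -0.033 to 0.30, Elovl4 -0.41 to 1.09 and Ugcg -0.37 to 0.096, and Alox12b was 0.19 with DESeq2 and 0.22 with edgeR. In DETCs against HFSCs they were Alox12b -0.57 to 0.22, Aloxe3 -0.72 to 0.12 and Abca12 -0.55 to 0.17, and Abca12 was 0.016 with DESeq2 and 0.0044 with edgeR. The causes were not tested.

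Over all genes, calls in Thy1hi against Thy1- cells were 58, with 1137 in the replicate block, 210 by DESeq2 and 95 with the 2 populations alone. They split into 20 higher and 38 lower, and 8 and 32 rescaled without Rn45s. Rescaling moved Thy1- cells against HFSCs from 440 higher and 606 lower to 837 and 482. Quantile normalization moved Thy1hi cells against DETCs from 2864 higher and 3425 lower to 3936 and 2921, with the median of all genes moving to 0.20. Depth was 7781256 to 12982393 reads, and Degs2 was too low to test.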
